A study of Mus musculus with 15 samples.

Results

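Cytochrome P450 genes were described by subfamily in the kidneys of mice with normal and adenine-damaged kidneys. The members were the protein-coding genes of the deposited table whose mouse symbol begins with Cyp and a number, read from the GENCODE M21 annotation of GRCm38. Cyp27b1 and Cyp24a1 were left out by that rule, and no measured value entered it. It gave 98 genes of the 54532 genes in the table, in 34 subfamilies. Of these members, 84 had a value above 0 in at least 1 library, 14 were listed at 0 in all 15 and 9 were above 0 in all 15.

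RNA was sequenced from 1 kidney each of 15 male C57BL/6 mice that were 8 weeks old at the start, 5 per group. The control group (C) ate normal chow. The CKD model group (M) ate chow with 0.25% adenine for 4 weeks, which damages the tubules, and standard chow afterwards. The AA group had the same adenine diet and was also gavaged daily with asiatic acid, a triterpenoid of Centella asiatica, at 30 mg/kg. C and M mice were gavaged with the DMSO vehicle, and tissue was taken after 8 weeks. More mice were assigned to each group than were sequenced. Values are in FPKM, fragments per kilobase of gene scaled by a library size that the sources do not define. Levels can be set side by side between genes of a library. That size differed from the total of fragments per library, by an amount that varied between groups and is given with the processing.

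Cytochrome P450 enzymes are heme proteins that add oxygen to small lipophilic molecules with electrons from a reductase partner. Enzymes of the lower-numbered families clear drugs and pollutants and also convert arachidonic acid to epoxides, family 4 oxidises the ends of fatty acid chains, and the higher-numbered families make or break down sterols, bile acids, steroid hormones and retinoic acid. In the kidney most of their RNA is known from proximal tubule cells, where the epoxides and hydroxylated acids act on salt transport and vessel tone.

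The libraries were uneven, and this touches every comparison with the M group. Fragments outside the mitochondrial genome numbered from 6951358 to 13576597 per library in C, from 2077628 to 7142897 in M and from 2225764 to 4271191 in AA, while mitochondrial genes held 53.0% to 62.5%, 64.0% to 86.8% and 69.2% to 87.2% of fragments. M mice 1 to 3 had 12 to 23 members above 0, against 57 and 58 in M mice 4 and 5, 55 to 66 in C and 42 to 52 in AA, and 67 of the 98 members were listed at 0 in all of M mice 1 to 3. Gapdh, a glycolysis gene that every cell uses, was itself listed at 0 in M mouse 1 and AA mice 1 and 2 and at no more than 0.0967 in the other AA mice, so a 0 here is given only as a listed value. Xist, the transcript of a silenced X chromosome, was at 2.55 and 1.45 FPKM in M mice 2 and 3 and at no more than 0.119 elsewhere, although all mice were labelled male and the Y-linked gene Ddx3y was present in each library. Counts and the values of called members without these libraries are given with the comparisons that involve M.

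Promoter sequences are shown for 3 pairs of paralogs on the same chromosome because of their calls in the comparisons that follow. Cyp2a4 and Cyp2a5 were both lower in M and in AA than in C. Cyp2d9 and Cyp2j9 were lower in M than in C, and their paralogs Cyp2d11 and Cyp2j5 were higher in AA than in M. The pairs were chosen after their values were seen. RefSeq promoters on GRCm38.p6 were found for 76 of the 98 members, and the 200 bases before the transcript start are printed 5′ to 3′. Capitals mark 3 motifs searched on both strands: TATAAA, the core of a TATA box, CAAAGT, part of the element bound by the liver and kidney factor HNF4A, and AGGTCA, the repeated unit of the elements bound by many nuclear receptors. No 2 matches overlapped in the 6 windows.
Cyp2a4: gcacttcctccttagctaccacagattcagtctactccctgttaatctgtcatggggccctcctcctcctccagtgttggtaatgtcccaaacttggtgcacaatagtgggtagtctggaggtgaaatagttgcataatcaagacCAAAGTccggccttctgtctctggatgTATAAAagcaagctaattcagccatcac
Cyp2a5: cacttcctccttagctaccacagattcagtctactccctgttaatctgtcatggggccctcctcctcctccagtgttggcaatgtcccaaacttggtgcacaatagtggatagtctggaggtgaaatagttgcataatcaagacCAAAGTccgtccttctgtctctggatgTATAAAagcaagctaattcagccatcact
Cyp2d9: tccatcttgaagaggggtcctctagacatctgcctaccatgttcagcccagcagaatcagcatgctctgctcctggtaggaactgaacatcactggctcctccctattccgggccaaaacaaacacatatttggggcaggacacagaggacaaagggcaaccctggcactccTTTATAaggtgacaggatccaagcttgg
Cyp2d11: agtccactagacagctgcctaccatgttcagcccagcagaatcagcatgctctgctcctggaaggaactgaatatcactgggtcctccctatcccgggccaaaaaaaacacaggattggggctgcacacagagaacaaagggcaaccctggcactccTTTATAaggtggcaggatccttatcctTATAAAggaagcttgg
Cyp2j9: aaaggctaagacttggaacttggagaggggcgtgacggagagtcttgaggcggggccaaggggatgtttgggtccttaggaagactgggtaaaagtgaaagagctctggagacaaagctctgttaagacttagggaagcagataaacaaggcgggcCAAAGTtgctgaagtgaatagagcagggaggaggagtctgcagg
Cyp2j5: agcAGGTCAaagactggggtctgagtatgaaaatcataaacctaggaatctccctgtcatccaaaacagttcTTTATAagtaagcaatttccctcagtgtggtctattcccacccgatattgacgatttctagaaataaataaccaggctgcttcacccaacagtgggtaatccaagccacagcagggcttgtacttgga
These windows lie at chr7:26306992-26307191, plus strand, chr7:26835139-26835338, plus strand, chr15:82452177-82452376, plus strand, chr15:82394023-82394222, minus strand, chr4:96591486-96591685, minus strand, and chr4:96664120-96664319, minus strand.

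The Cyp2a4 and Cyp2a5 windows were 97.5% identical and held CAAAGT and TATAAA at nearly the same distances from the start, CAAAGT from 55 and 56 bases before it and TATAAA from 28 and 29. The Cyp2d9 and Cyp2d11 windows were 79.5% identical, and the Cyp2d11 window held a second TATAAA from 16 bases before the start. The Cyp2j9 and Cyp2j5 windows were 49.5% identical and shared no match: Cyp2j9 held CAAAGT, while Cyp2j5 held AGGTCA and a TATAAA on the opposite strand. Over the same 200 bases CAAAGT was present in 43.4% of the 76 member promoters and in 9.84% of the 32851 promoters of all genes, TATAAA in 35.5% and 9.96%, and AGGTCA in 19.7% and 11.4%. Cyp genes of a subfamily share ancestry and sequence, so these shares are a description of the letters and not of binding.

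In healthy kidneys the most abundant members came from few subfamilies. Summed over members, the C group had a median of 74.9 FPKM (13.6 to 99.6) for the 8 Cyp4a genes, 38.7 (19.4 to 91.9) for the 8 Cyp2j genes, 29.8 (12.6 to 99.2) for the 8 Cyp2d genes, 29.5 (8.66 to 59.6) for Cyp2e1, 27.7 (19.2 to 64.5) for the 4 Cyp2a genes and 19.9 (13.3 to 141) for Cyp4b1. These ranges overlap, so the order of the 6 sums is not set by the data. Over all 15 libraries 33 members had a mean of at least 1 FPKM and 6 a mean of at least 10, namely Cyp4b1, Cyp1b1, Cyp2e1, Cyp4a10, Cyp2j5 and Cyp2a4. All members together summed to 141 to 616 FPKM in C, 33.6 to 105 in M and 93.4 to 165 in AA. The M libraries therefore lay wholly below those of C, while AA overlapped each of the other groups.

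**Figure D1:**
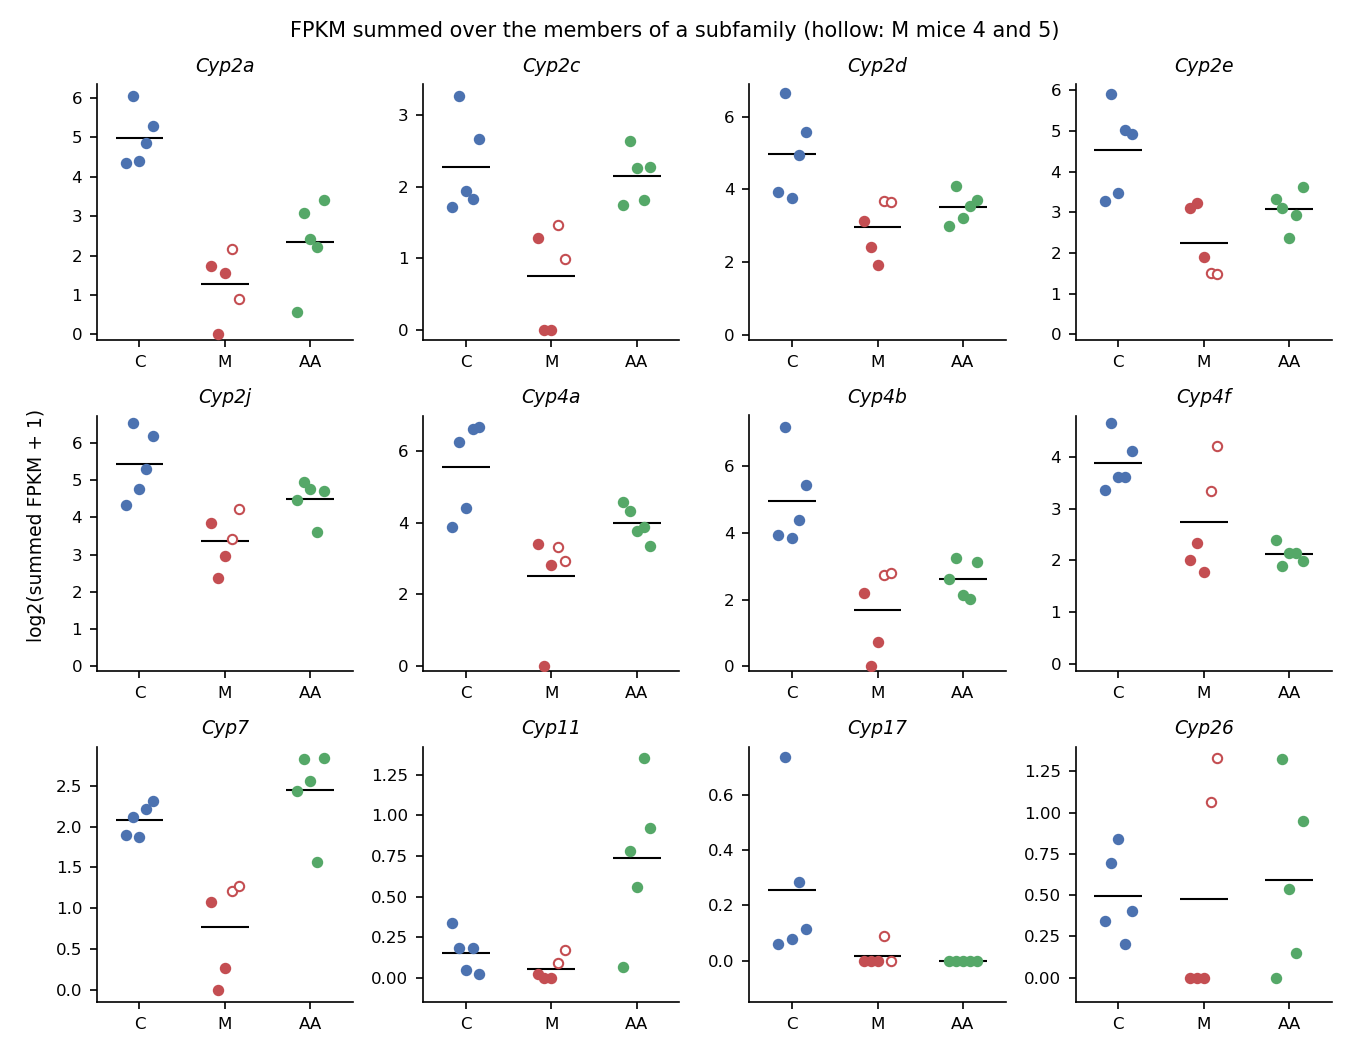
Summed FPKM of the members of 12 subfamilies in each library, as log2(summed FPKM + 1) on the vertical axis, with the C, M and AA groups on the horizontal axis. Each point is 1 mouse, hollow points are M mice 4 and 5, and the bar is the group mean. In Cyp2a, Cyp2c, Cyp2d, Cyp2e, Cyp2j, Cyp4a, Cyp4b and Cyp7 every M point lies below every C point, and in the other panels C and M overlap. In Cyp2c and Cyp7 the AA points lie above the M points, and in Cyp17 every AA point is at 0.

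The first question was what the adenine diet did to these genes. In M vs. C, 55 members could be tested, since a gene needed a nonzero value in 5 or more of the 10 libraries. The 5 libraries of 1 group could meet this alone, so a gene at 0 throughout the other group entered by its values in the first. The same filter held for all genes. Of the 55 members, 24 were listed at 0 in all of M mice 1 to 3. Of the 55, 9 were called lower and 0 higher, and 3 of the 9 were among those 24. A call required a log2 fold change of 1 or more in either direction with an adjusted p no larger than 0.05. The genes called lower were Cyp2a4, Cyp2a5, Cyp2d9, Cyp2d12, Cyp2j7, Cyp2j9, Cyp4a12a, Cyp4a31 and Cyp4b1. They made up 16.4% of the members tested, against 1.11% of all 21153 genes tested that were called lower and 0.269% that were called higher; among protein-coding genes alone 1.33% were called lower. At an unadjusted p under 0.05, limma counted 26 of the 55 members lower and 0 higher, beside 3493 of all 21153 genes in either direction. Limma voom on recovered fragments called 22 lower (40.0%, against 8.44% of all genes) and 0 higher. In 14 members every M library lay below every C library (25.5%, against 3.67% of all genes), and in 0 every M library lay above (1.05% of all genes). The median log2 fold change was -0.50 over the members and -0.12 over all genes tested, and the members' median was below 0 under every scaling tried. In whole kidneys a loss of the cells that express a gene and less of its RNA per cell cannot be told apart.

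The count of calls changed with the M libraries used, for members and for all genes alike. Against C, M mice 4 and 5 alone gave 0 called members of 58 tested in limma, and 0 of all 22621 genes were called. At an unadjusted p under 0.05 limma counted 18 members (16 lower and 2 higher), beside 2642 of all genes in either direction. M mice 1, 4 and 5 gave 0 members and 0 of all 22686 genes, with 20 members lower at that p, beside 2032 of all genes in either direction. M mice 1 to 3 alone gave 18 of 54 members, all lower (33.3%, against 12.5% of all genes). In these fits the number of mice and the kind of library change together and cannot be told apart. Leaving out 1 library at a time gave 1 to 13 called members, and 4 to 954 called of all genes. There was 1 member without C mouse 5, M mouse 2 or M mouse 3, where 4 of 20020, 36 of 21080 and 18 of 21053 genes were called. There were 3 members without C mouse 2 or M mouse 1 (75 of 20483 and 85 of 21074 genes), and 5 without C mouse 4 (157 of 19845). All 9 members called lower in M vs. C kept a negative log2 fold change with M mice 4 and 5 alone, with no adjusted p under 0.05. It was -2.40 (adjusted p = 0.112) for Cyp2a5, -1.95 (adjusted p = 0.232) for Cyp2d9, -3.09 (adjusted p = 0.257) for Cyp2d12 and -1.91 (adjusted p = 0.236) for Cyp2j7. It was -1.90 (adjusted p = 0.288) for Cyp2j9, -1.67 (adjusted p = 0.134) for Cyp4a12a and -2.41 (adjusted p = 0.197) for Cyp4a31. Values for Cyp2a4 and Cyp4b1 stand with those genes.

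Among families 1 to 3, which hold the drug-metabolising enzymes and the arachidonic acid epoxygenases, 6 of 30 tested members were called lower in M vs. C. Cyp2a4, a steroid 15-hydroxylase at chr7:26307169-26315088, was at 16.9, 53.4, 17, 23.7 and 31.4 FPKM in C mice 1 to 5. In M it was at 0.595, 0, 1.95, 3.22 and 0.664, and in AA at 0.465, 7.08, 3.72, 2.57 and 8.75. Every M and every AA library was below the lowest C library, and M and AA overlapped. The log2 fold change was -3.74 (SE 0.43, adjusted p = 0.00852) for M vs. C and -2.56 (SE 0.49, adjusted p = 0.00254) for AA vs. C, and with M mice 4 and 5 alone the first was -3.34 (adjusted p = 0.0844). It was the only member called in M vs. C whichever 1 library was left out.

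Cyp2a5, the coumarin 7-hydroxylase that also acts on retinoids and lies on the same chromosome at chr7:26835305-26843548, was at 1.98, 11.1, 2.91, 3.90 and 6.53 FPKM in C. It was at 1.75, 0, 0, 0.0822 and 0.0155 in M and 0, 0.107, 0.579, 0.375 and 0.689 in AA. M mouse 1 came near the lowest C mouse and the other M mice were at or near 0. The change was -2.15 (SE 0.42, adjusted p = 0.0296) for M vs. C, -2.07 (SE 0.35, adjusted p = 0.00141) for AA vs. C and 0.09 (SE 0.27, adjusted p = 0.863) for AA vs. M. Reads of this pair may be divided uncertainly, since 58.9% of the 31-base words of Cyp2a4 and 54.6% of those of Cyp2a5 occur in transcripts of other genes, with the other gene of the pair as the main partner.

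In the Cyp2d cluster on chromosome 15, Cyp2d9, a testosterone 16-hydroxylase of male mice at chr15:82433437-82456845, was at 5.39, 18.1, 4.85, 12.0 and 17.6 FPKM in C, 0.648, 0, 0, 3.87 and 0.699 in M and 1.46, 4.25, 0.226, 1.57 and 1.54 in AA. All M and AA values lay below the lowest C value, and the change in M vs. C was -2.72 (SE 0.49, adjusted p = 0.0232). Cyp2d12 at chr15:82555072-82560403 was at 2.09, 66.5, 4.40, 5.96 and 14.8 in C, 0, 0, 1.10, 0.492 and 0 in M and 0, 0, 0, 0 and 0.224 in AA. C mouse 2 was far above the others of its group, and 3 M mice and 4 AA mice were listed at 0. Its change was -3.05 (SE 0.67, adjusted p = 0.0436) for M vs. C. Cyp2d26 at chr15:82790101-82794294 was at 0.695, 8.89, 1.19, 4.52 and 7.64 in C and 0, 3.42, 0, 0.152 and 0.894 in M. Its groups overlapped, and it was not called in M vs. C at -1.50 (SE 0.56, adjusted p = 0.215).

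Genes of the Cyp2j subfamily, which lie side by side on chromosome 4, oxidise arachidonic acid and related fatty acids. All 8 members were tested in M vs. C and all had negative log2 fold changes, from -2.54 to -0.11, but 2 passed. Cyp2j7 at chr4:96195197-96236659 was at 2.10, 15.3, 4.96, 5.42 and 10.7 FPKM in C and 0, 0, 0, 0.518 and 1.59 in M, a change of -2.50 (SE 0.45, adjusted p = 0.0230). Cyp2j9 at chr4:96568429-96591578 was at 2.16, 18.6, 3.99, 6.07 and 12.4 in C and 0, 0, 0, 0.603 and 1.75 in M, a change of -2.54 (SE 0.49, adjusted p = 0.0287). Both were listed at 0 in M mice 1 to 3 and were low but present in M mice 4 and 5. Cyp2j6 had no overlap between the groups and missed the threshold at -2.01 (SE 0.48, adjusted p = 0.0614). Cyp2j5, the main epoxygenase of this subfamily in mouse kidney, was at 7.81, 25.5, 8.06, 12.7 and 16.9 in C and 9.48, 3.22, 4.08, 3.63 and 6.28 in M, with overlap and a change of -1.22 (SE 0.38, adjusted p = 0.138). Cyp2j11 was at -1.57 (SE 0.44, adjusted p = 0.101) and Cyp2j13 at -0.60 (SE 0.44, adjusted p = 0.518).

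Other members of these families gave values that did not pass in M vs. C. Cyp2e1, which oxidises ethanol and small solvents, was at 8.66, 59.6, 10.1, 31.8 and 29.5 FPKM in C and 7.59, 8.34, 2.73, 1.86 and 1.80 in M. All M mice were below all C mice, and the change was -2.28 (SE 0.55, adjusted p = 0.0612). Cyp2c23, named Cyp2c44 in older annotation and an arachidonic acid epoxygenase of the kidney, was at 1.92, 8.51, 2.74, 2.27 and 5.19 in C and 1.44, 0, 0, 1.31 and 0.609 in M, again without overlap, at -1.57 (SE 0.40, adjusted p = 0.0784). Cyp1b1, which hydroxylates estradiol and aromatic hydrocarbons and is known from stromal cells, was at 12.4, 9.76, 4.54, 14.6 and 18.9 in C and 22.7, 4.91, 15.9, 24.8 and 5.03 in M, a change of 0.11 (SE 0.50, adjusted p = 0.915). Cyp2s1 was at -0.68 (SE 0.38, adjusted p = 0.388). Cyp1a1, the target of the aryl hydrocarbon receptor, was at no more than 0.411 FPKM in any library, and Cyp2b23, Cyp2r1, a vitamin D 25-hydroxylase, Cyp2t4, Cyp2ab1 and Cyp3a11 were below 1 FPKM in each library. Cyp2b10 and Cyp3a13, targets of drug-sensing receptors in the liver, were above 0 in too few libraries to be tested, with highest values of 0.299 and 0.300 FPKM.

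**Figure D2:**
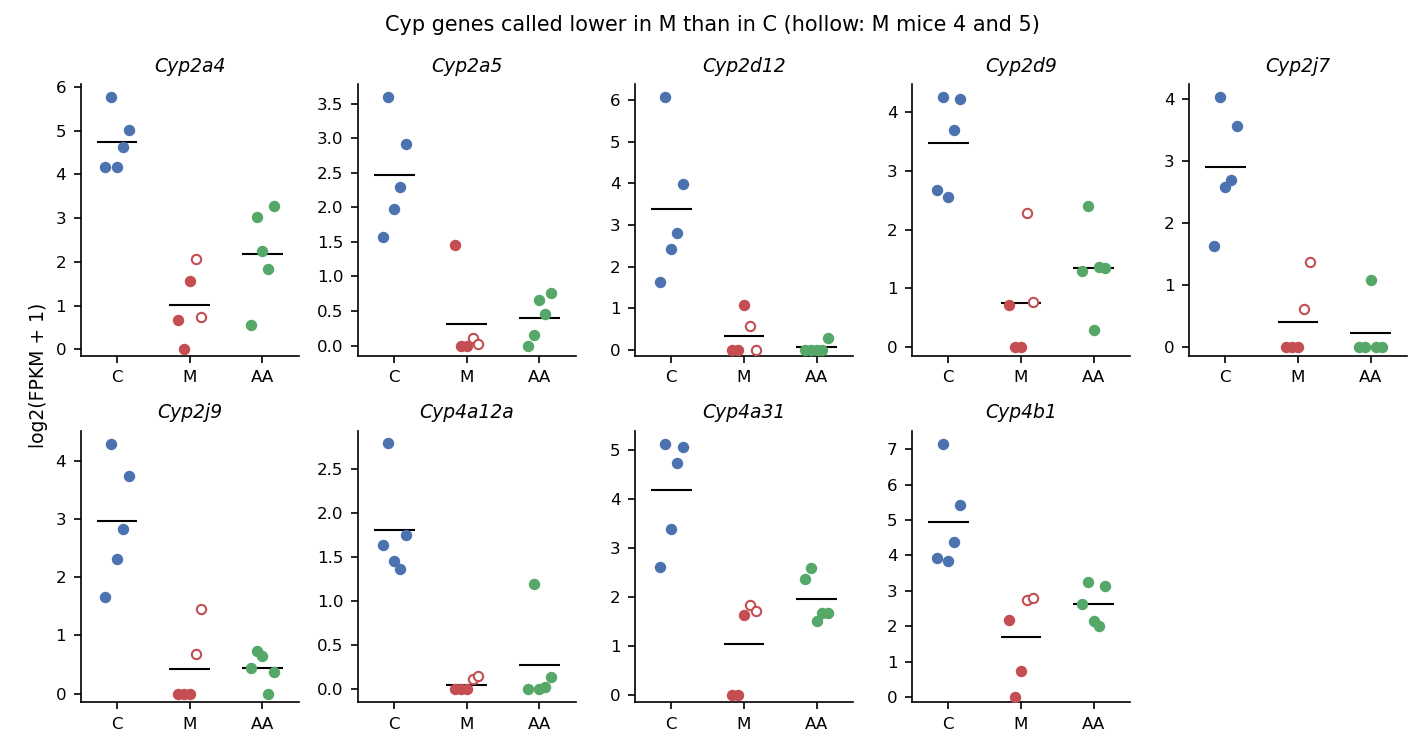
Levels of the 9 genes called lower in M vs. C, as log2(FPKM + 1) on the vertical axis, in each of the 5 mice of C, M and AA. Points are mice, hollow points are M mice 4 and 5 and bars are group means; in all 9 genes the M points lie below the C points, with M mouse 1 close to C in Cyp2a5.

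In family 4, whose enzymes hydroxylate the omega end of fatty acids and so turn arachidonic acid into 20-HETE, 3 of 14 tested members were called lower in M vs. C. Cyp4b1 at chr4:115624725-115647723 was at 14.3, 141, 13.3, 19.9 and 41.9 FPKM in C, 3.55, 0, 0.653, 5.67 and 5.95 in M and 5.14, 8.45, 3.43, 3.04 and 7.79 in AA. C mouse 2 was the highest by far, yet M and AA lay wholly below the rest of C as well. The change was -3.26 (SE 0.70, adjusted p = 0.0404) for M vs. C and -2.18 (adjusted p = 0.326) with M mice 4 and 5 alone. Cyp4a31 at chr4:115563649-115579015 was at 5.08, 33.9, 9.40, 25.7 and 32.1 in C and 0, 0, 2.11, 2.55 and 2.29 in M, a change of -3.14 (SE 0.57, adjusted p = 0.0229). Cyp4a12a at chr4:115299046-115332815, the 20-HETE synthase of male mouse kidney, was at 2.12, 5.94, 1.75, 1.59 and 2.37 in C, 0, 0, 0, 0.0845 and 0.106 in M and 0, 1.28, 0, 0.0201 and 0.103 in AA. All 10 of its M and AA values lay below the lowest C value, and the change in M vs. C was -1.75 (SE 0.29, adjusted p = 0.0194). Of the 31-base words of Cyp4a12a 62.2% occur elsewhere, chiefly in Cyp4a12b, which was itself lower in every M library than in any C library and had -0.63 (SE 0.20, adjusted p = 0.150).

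Cyp4a10 and Cyp4a14 are targets of the fatty acid receptor PPARα. Cyp4a10 was at 3.81, 28.9, 7.96, 63.3 and 56.8 FPKM in C and 3.84, 0, 2.16, 4.04 and 2.04 in M, where C mouse 1 fell within the M range, and the change was -2.86 (SE 0.71, adjusted p = 0.0704). Cyp4a14 was at 0.479, 3.60, 0.359, 4.44 and 6.46 in C and 5.76, 0, 1.81, 1.11 and 0.801 in M, fully overlapping, at -0.47 (SE 0.58, adjusted p = 0.696). Of the leukotriene-hydroxylating Cyp4f genes, none of 5 tested was called in M vs. C. Cyp4f13 was at 7.12, 16.1, 6.38, 6.94 and 13.1 in C and 0, 1.61, 0, 5.29 and 11.2 in M, with M mouse 5 within the C range, M mouse 4 just below it and M mice 1 to 3 at 1.61 or less, at -1.83 (SE 0.64, adjusted p = 0.183). Cyp4f18 and Cyp4v3 had changes of 0.43 and 0.35, Cyp4x1 stayed at or below 0.503 FPKM, and Cyp4f14 was at 0 in 12 of 15 libraries and untested.

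None of the 11 tested members of the sterol, steroid, bile acid and retinoid families was called in M vs. C. Cyp7b1, the oxysterol 7-hydroxylase of the alternative bile acid pathway, was at 2.64, 3.27, 2.65, 3.36 and 3.78 FPKM in C and 1.11, 0, 0.204, 1.21 and 1.26 in M. All M values were below all C values, and it missed the threshold at -1.31 (SE 0.30, adjusted p = 0.0551). Cyp27a1, the mitochondrial sterol 27-hydroxylase, was at 6.10, 21.1, 5.59, 11.9 and 13.2 in C and 4.36, 0, 1.97, 6.39 and 21.1 in M, with M mouse 5 close to the highest C mouse, at -1.24 (SE 0.67, adjusted p = 0.378). Cyp46a1, the cholesterol 24-hydroxylase, was at 1.45, 3.03, 2.23, 1.47 and 3.98 in C and 0, 0, 0, 1.73 and 1.98 in M, where again M mice 4 and 5 lay within the C range. Cyp51, the lanosterol demethylase of cholesterol synthesis, and the orphan Cyp20a1 were present in all libraries at 0.979 to 4.51 and 2.17 to 7.18 FPKM, with changes of -0.49 and 0.11 in M vs. C.

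Steroid-producing enzymes were near 0. Cyp11a1, which cleaves the cholesterol side chain, was at 0.169, 0.135, 0.00627, 0.135 and 0.0187 FPKM in C, 0.0179, 0, 0, 0.0639 and 0.127 in M and 0.0459, 0.716, 0.472, 1.56 and 0.892 in AA, so 4 AA mice lay above all others. Its change was 0.68 (SE 0.21, adjusted p = 0.0359) in AA vs. M, under the fold required for a call. Cyp17a1, the 17-hydroxylase, was above 0 in all C mice at no more than 0.666 FPKM, in 1 M mouse and in no AA mouse, and Cyp11b1 and Cyp21a1 were each above 0 in no more than 2 libraries. The adrenal cortex is a neighbouring tissue rich in these enzymes, and its 6 markers summed to 3.72 to 5.60 FPKM in C, 0.247 to 3.25 in M and 5.07 to 8.92 in AA. Fdx1, called higher in AA vs. M, was the highest of them except in M mouse 3, and Mc2r reached 2.99 in AA mouse 3. Star was at no more than 1.61, Hsd3b1 at no more than 0.812 and Nr0b1 at no more than 0.245, and Nr5a1 was above 0 in 1 library at 0.0139. The 7 liver markers summed to 5.17 to 12.4 in C, 1.53 to 6.18 in M and 3.77 to 8.30 in AA. Serpina1a was the highest of them at 9.64 in C mouse 5, Apoa2 reached 3.57, Alb 2.56, Apoh 1.68, Apoa1 1.29, Ahsg 0.303 and Fgb 0.125. The part of either tissue in the Cyp levels was not tested. Of the retinoic acid hydroxylases, Cyp26a1 was at 0.246, 0.421, 0.374, 0.117 and 0.303 in C, 0, 0, 0, 0.904 and 1.12 in M and 0, 1.5, 0.451, 0 and 0.70 in AA, with no separation between groups, and Cyp26b1 was at no more than 0.413.

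The second question was what asiatic acid changed in mice on adenine. In AA vs. M, 47 members were tested under the same filter, which the AA libraries alone could meet, and 17 of them were listed at 0 in all of M mice 1 to 3. Of the 47, 7 were called higher, 3 of them among those 17, and 0 lower: Cyp2d11, Cyp2f2, Cyp2j5, Cyp2u1, Cyp39a1, Cyp4a29 and Cyp7b1. The share of members called higher, 14.9%, was near the 11.7% of all 19798 genes tested that were called higher, while 1.07% of genes were called lower. Among protein-coding genes 4.86% were called higher, and among other gene types 31.8%. At an unadjusted p under 0.05 limma counted 15 of the 47 members higher and 0 lower, beside 6360 of all 19798 genes in either direction. Limma voom called 3 higher (6.38%, against 8.27% of all genes) and 0 lower. In 6 members (12.8%) every AA library lay above every M library, against 11.9% of all genes, and in 0 every AA library lay below (1.31% of all genes). The members' median log2 fold change was 0.39 and that of all genes 0.17, and when log2 values were centred on each library's median the members' median was -0.12 and that of all genes -0.35, with 3 members called higher and 1, Cyp4f13, lower.

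These counts also moved with the M libraries. With M mice 4 and 5 alone 4 members of 49 were called, and none of the 7 named above was among them. Cyp2e1 was higher (2.04% of the members, against 1.87% of all genes) and Cyp27a1, Cyp46a1 and Cyp4f13 were lower (6.12%, against 5.70%). With M mice 1, 4 and 5, limma called 0, while 1.497% of all genes were called higher and 0.556% lower. At an unadjusted p under 0.05, 11 of the 49 members were higher and 3 lower, beside 5249 of all 21046 genes in either direction. With M mice 1 to 3 alone 8 of 41 were called, all higher (19.5%, against 17.9% of all genes). M vs. C and AA vs. M share the 5 M libraries, so a gene that is low in them falls in the first comparison and rises in the second. All 7 genes kept a positive log2 fold change with M mice 4 and 5 alone, with no adjusted p under 0.05: 0.64 (adjusted p = 0.245) for Cyp2d11, 1.00 (adjusted p = 0.202) for Cyp2f2, 1.13 (adjusted p = 0.0755) for Cyp2u1, 1.17 (adjusted p = 0.117) for Cyp39a1 and 1.38 (adjusted p = 0.0797) for Cyp4a29, with Cyp2j5 and Cyp7b1 given where they are described.

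Of the 7 genes, Cyp2d11, Cyp2f2, Cyp2j5 and Cyp7b1 had values in AA that overlapped those in C. Cyp2j5 at chr4:96628773-96664154 was at 15.6, 23.5, 18.1, 7.33 and 17.5 FPKM in AA, against the M values of 3.22 to 9.48 given above. AA mouse 4 overlapped the M group, and the change was 1.46 (SE 0.37, adjusted p = 0.0164) in AA vs. M and 0.24 (SE 0.36, adjusted p = 0.618) in AA vs. C. Cyp7b1 at chr3:18071950-18243338 was at 4.27, 5.58, 4.77, 1.53 and 5.82 in AA, all above the highest M value of 1.26. Its change was 1.62 (SE 0.37, adjusted p = 0.00987) in AA vs. M and 0.31 (SE 0.27, adjusted p = 0.391) in AA vs. C. With M mice 4 and 5 alone the changes in AA vs. M were 1.5 (adjusted p = 0.0587) for Cyp2j5 and 1.19 (adjusted p = 0.105) for Cyp7b1.

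Cyp2u1 and Cyp39a1 were higher in AA than in either other group. Cyp2u1, a fatty acid hydroxylase at chr3:131288441-131303227, was at 2.42, 0.835, 1.04, 1.75 and 1.5 FPKM in C, 0, 0, 0.0843, 0.826 and 1.97 in M and 5.80, 4.97, 2.82, 4.23 and 3.20 in AA. Every AA mouse was above every mouse of the other groups, and the change was 1.84 (SE 0.36, adjusted p = 0.00537) in AA vs. M and 1.05 (SE 0.24, adjusted p = 0.00620) in AA vs. C. Cyp39a1, the 24-hydroxycholesterol 7-hydroxylase at chr17:43667425-43751431, was at 1.34, 0.0244, 0.611, 0.706 and 1.26 in C, 0.621, 0.846, 1.45, 0.715 and 0.588 in M and 3.92, 5.81, 1.88, 1.66 and 1.79 in AA. Here too the AA mice lay above all others, with 1.03 (SE 0.33, adjusted p = 0.0450) in AA vs. M, which was lost when any of the 5 M mice or AA mouse 1 or 2 was left out.

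Cyp2d11, Cyp2f2 and Cyp4a29 are genes at or below 1.77 FPKM in C. Cyp4a29 at chr4:115242084-115254557 was at 1.55, 0.0488, 0.157, 1.49 and 1.46 in C, 0, 0, 0, 0.936 and 1.21 in M and 8.73, 4.06, 4.66, 4.73 and 1.83 in AA. All AA values were above all others, and the change was 2.01 (SE 0.38, adjusted p = 0.00480) in AA vs. M and 1.58 (SE 0.36, adjusted p = 0.00650) in AA vs. C. Cyp2f2 at chr7:27119909-27133660, best known for activating naphthalene in lung club cells, was at 1.77, 0.614, 0.632, 1.40 and 0.266 in C, 0, 0, 0, 0.724 and 0.617 in M and 3.44, 5.75, 1.38, 1.25 and 1.59 in AA, with 1.44 (SE 0.36, adjusted p = 0.0144) in AA vs. M. Cyp2d11 at chr15:82389154-82394022 was at 1.06, 0.110, 0.0568, 0.427 and 0.0940 in C, 0, 0, 0, 0.643 and 0.665 in M and 2.17, 1.74, 0.713, 1.62 and 1.87 in AA, with 1.07 (SE 0.28, adjusted p = 0.0179) in AA vs. M, and 58.5% of its 31-base words occur elsewhere, chiefly in Cyp2d10. All 3 were listed at 0 in M mice 1 to 3.

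Cyp pseudogenes make no enzyme. Summed over 30 annotated Cyp pseudogenes, AA libraries held 8.31 to 37.2 FPKM, against 1.46 to 11.2 in C and 0 to 4.10 in M, and 3 of 6 tested were called higher in AA vs. M. Among all genes that are not protein-coding that share was 31.8%, as given above, and with M mice 4 and 5 alone 0 of the 6 were called, with 2 higher at an unadjusted p under 0.05 in limma and 1 called higher by limma voom in all 10 libraries. Cyp4b1-ps2 was at 6.55, 0.224, 0.0452, 2.40 and 0.0897 in C, 0, 0, 0, 1.54 and 1.54 in M and 8.60, 24.6, 4.40, 5.54 and 5.59 in AA, a change of 2.62 (SE 0.46, adjusted p = 0.00397) in AA vs. M. Cyp4a30-ps and Cyp2c52-ps had changes of 1.15 (SE 0.29, adjusted p = 0.0157) and 1.26 (SE 0.40, adjusted p = 0.0439). C mouse 1 held the highest Cyp4b1-ps2 of its group. It was also the highest C mouse for Cyp2d11, Cyp2f2, Cyp2u1, Cyp39a1 and Cyp4a29, and the lowest for Cyp2j5 and Cyp7b1. Any link between the pseudogenes and the 7 genes was not tested.

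**Figure D3:**
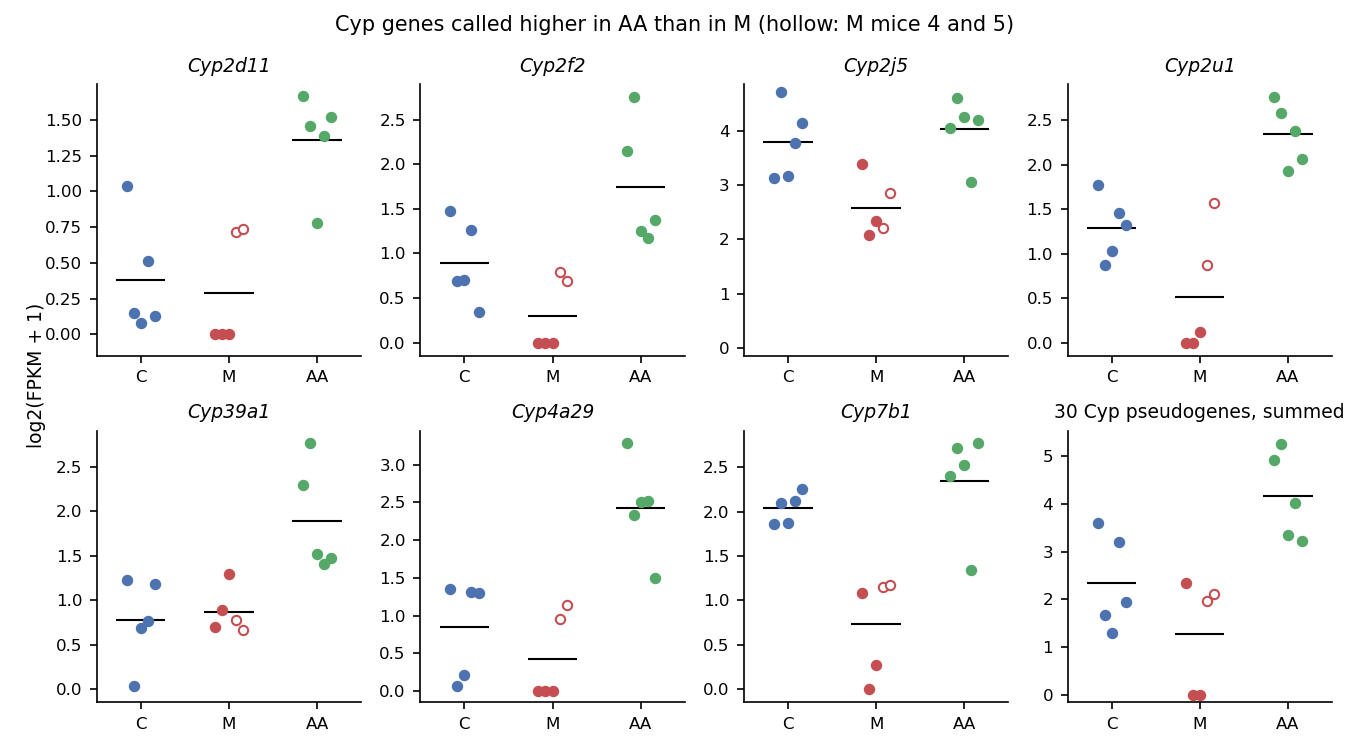
Levels of the 7 genes called higher in AA vs. M and of 30 Cyp pseudogenes summed, as log2(FPKM + 1) on the vertical axis, in each of the 5 mice of C, M and AA. Points are mice, hollow points are M mice 4 and 5 and bars are group means; in all panels except Cyp2j5 the AA points lie above the M points, and in Cyp2d11, Cyp2f2, Cyp2j5 and Cyp7b1 the AA points overlap those of C.

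The last question was how the kidneys of mice given asiatic acid on adenine compared with healthy ones. In AA vs. C, 56 members were tested, and 16 were called lower and 4 higher. Either group alone could meet the filter here as well. The lower share of 28.6% compares with 9.61% of all 21898 genes tested (12.0% of protein-coding genes), and the higher share of 7.14% with 10.2%. In 15 members (26.8%) every AA library lay below every C library, against 12.5% of all genes, and in 3 (5.36%) every AA library lay above, against 11.5%. The members' median log2 fold change was -0.13 and that of all genes 0.09. Leaving out 1 library at a time gave 14 to 22 called members, and 3463 to 4770 called of all genes. After scaling each library to the same total, 25 members were called lower (44.6%, against 27.0% of all genes) and 0 higher (3.94% of all genes). With totals that left out mitochondrial genes, 20 of 56 members were called lower and 6 higher, beside 3612 and 3578 of all 21882 genes. Limma voom called 25 lower (44.6%, against 31.9%) and 1 higher (1.79%, against 7.23%).

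Called lower in AA vs. C were Cyp2a4, Cyp2a5, Cyp2d9, Cyp2d12, Cyp2j7, Cyp2j9, Cyp4a12a, Cyp4a31 and Cyp4b1, which were also called in M vs. C. Both comparisons use the same 5 C libraries, so this overlap is no independent evidence. The other genes called lower were Cyp2d26, Cyp2e1, Cyp2j6, Cyp4a10, Cyp4f13, Cyp27a1 and Cyp46a1. Cyp2j7 was at 0, 0, 1.10, 0 and 0 FPKM in AA, a change of -2.68 (SE 0.41, adjusted p = 0.000858), and Cyp2j9 at 0.352, 0.665, 0.559, 0 and 0.298, a change of -2.53 (SE 0.43, adjusted p = 0.00141). Cyp2j6 was at 2.61, 12.6, 4.21, 4.75 and 12.9 in C and 1.30, 0.554, 0.702, 0.728 and 1.55 in AA, a change of -1.91 (SE 0.37, adjusted p = 0.00281). Cyp2j5, in the same cluster, was not called in that comparison. Cyp4a31 was at 4.16, 5.04, 1.86, 2.17 and 2.20 and Cyp4a10 at 3.48, 8.41, 2.21, 4.61 and 3.03, with changes of -2.22 (SE 0.47, adjusted p = 0.00431) and -2.12 (SE 0.65, adjusted p = 0.0249). Cyp2e1 was at 9.05, 7.55, 4.14, 6.69 and 11.4 and overlapped the lowest C mice, at -1.46 (SE 0.47, adjusted p = 0.0300).

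Of these genes, Cyp2d26 was at 0, 1.48, 0.521, 0.108 and 2.01 FPKM in AA and overlapped both C and M. The other 3, Cyp4f13, Cyp46a1 and Cyp27a1, were lower in AA than in M mice 4 and 5. Cyp4f13 was at 1.28, 0.466, 0.380, 0.321 and 0.261 FPKM in AA, a change of -2.77 (SE 0.29, adjusted p = 0.000133), the smallest adjusted p of any member. Cyp46a1 was at 0, 0, 0.345, 0.384 and 0.113, with -1.51 (SE 0.24, adjusted p = 0.000931). Cyp27a1 was at 2.57, 3.27, 2.33, 4.65 and 1.40, with -1.62 (SE 0.35, adjusted p = 0.00470). In AA vs. M their changes were -0.94, -0.39 and -0.38 and none was called, whereas against M mice 4 and 5 alone they were -2.54 (adjusted p = 0.00778), -1.30 (adjusted p = 0.0113) and -1.79 (adjusted p = 0.0449).

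Called higher in AA vs. C were Cyp2u1, Cyp39a1 and Cyp4a29, described above, and Cyp1b1. Cyp1b1 was at 28.8, 26.7, 18.5, 14.1 and 31.4 FPKM in AA, overlapping C, with 1.00 (SE 0.35, adjusted p = 0.0400), and after scaling each library to the same total its change was -0.03. That total includes the mitochondrial genes, which held 53.0% to 62.5% of fragments in C and 69.2% to 87.2% in AA. Of 7 fibroblast and mural markers, 6 were called higher in AA vs. C as deposited (10.2% of all genes were), 2 higher and 1 lower after the same scaling, and 4 higher and 1 lower by limma voom. They had a summed level of 282 to 482 FPKM in AA against 66.0 to 149 in C and 131 to 442 in M; their part in the Cyp1b1 level was not tested.

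**Figure D4:**
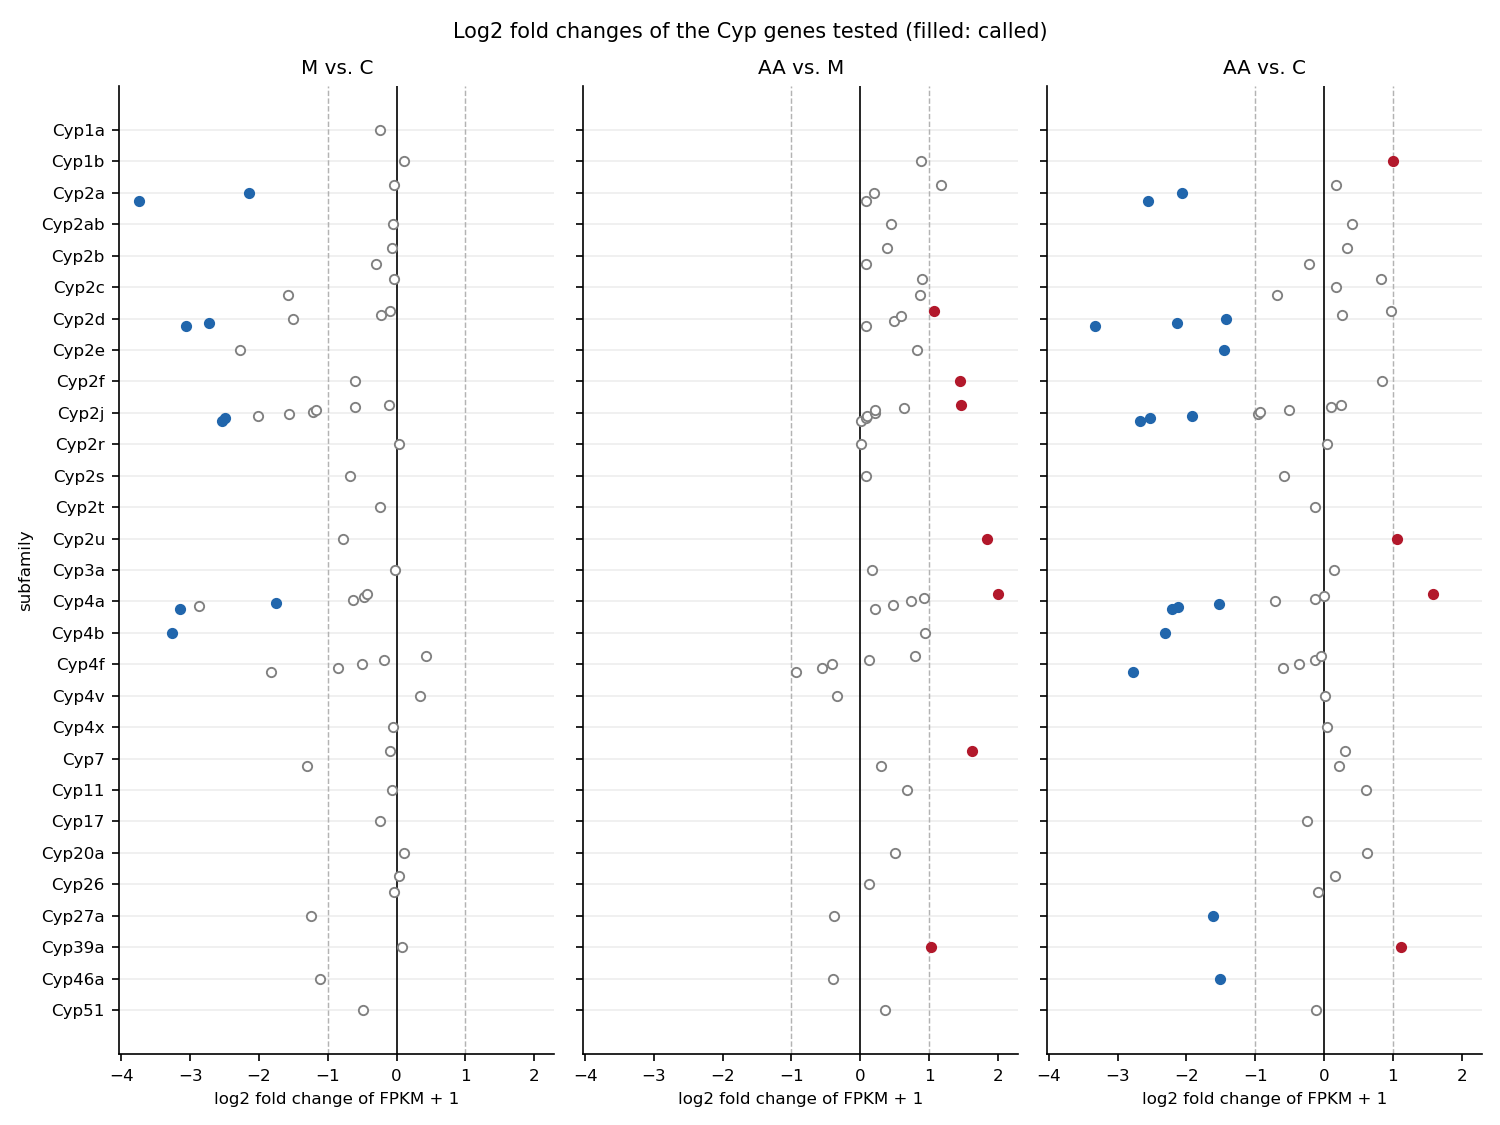
Log2 fold change of FPKM + 1 (horizontal axis, dashed lines at -1 and 1) of each tested member by subfamily (vertical axis) for each pair of groups. Filled points were called, lower in blue and higher in red, and hollow points were not; the 9 called in M vs. C all lie left of -1, the 7 in AA vs. M right of 1, and AA vs. C holds 16 on the left and 4 on the right.

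Markers of the tubule cells that express these enzymes fell with them. Of 15 proximal tubule markers 8 were called lower in M vs. C, and 9 when AA was set against C, and their summed level was 332 to 2288 FPKM in C, 23.9 to 108 in M and 73.7 to 122 in AA. Slc34a1, the phosphate transporter that defines the segment, was at 71.0, 905, 106, 139.7 and 339 in C, 1.97, 0.184, 0.378, 10.9 and 16.9 in M and 2.62, 2.89, 4.50, 3.35 and 4.59 in AA. Its highest C library was mouse 2. Of the 6 members with a mean of at least 10 FPKM, Cyp4b1, Cyp2e1, Cyp2j5 and Cyp2a4 were highest there too. Cyp4a10 was highest in C mouse 4 and Cyp1b1 in C mouse 5. C mouse 2 also had the highest ratio of fragments outside mitochondrial genes to the FPKM library size, 0.314. In AA vs. M 0 of 14 proximal tubule markers were called by limma or limma voom, with 2 higher at an unadjusted p under 0.05 in limma. With M mice 4 and 5 alone 0 of these markers and 0 of all 22621 genes were called in M vs. C. At that unadjusted p limma counted 11 of the markers lower. In AA vs. M the same mice gave Slc34a1 called lower at -1.69 (adjusted p = 0.0149), where 5.70% of all genes were called lower. Of 5 markers of the thick ascending limb and collecting duct 2 were called lower in M vs. C, and 3 when AA was set against C. Among them Slc12a1 was called lower in AA against M mice 4 and 5 alone, at -2.23 (adjusted p = 0.00826). Of 8 macrophage markers 3 were called higher in M vs. C (0.269% of all genes were), and 0 with M mice 4 and 5 alone. Csf1r went the other way, at -1.01 (SE 0.37, adjusted p = 0.205) in M vs. C. It was called lower in AA vs. C at -1.52 (SE 0.31, adjusted p = 0.00376), where 4 macrophage markers were called higher. Of 5 endothelial markers 0 were called in any comparison by limma, with 0 at an unadjusted p under 0.05 and 3 called lower in AA vs. C by limma voom. The part of cell composition in the Cyp levels was not tested.

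The P450 enzymes depend on partner genes for electrons and heme. Of 9 electron donor and heme supply genes, 0 were called in M vs. C by limma, with 4 lower at an unadjusted p under 0.05 and 4 called lower by limma voom. Fdx1, the ferredoxin that feeds mitochondrial P450 enzymes, was at 3.84, 4.13, 3.18, 3.49 and 3.30 FPKM in C, 3.25, 0.247, 0.712, 1.75 and 1.20 in M and 5.11, 4.50, 5.84, 4.93 and 5.00 in AA. Every AA mouse was above every other mouse, and the change in AA vs. M was 1.44 (SE 0.34, adjusted p = 0.0112), and 1.30 (adjusted p = 0.0214) with M mice 4 and 5 alone. Its reductase Fdxr was at 8.57, 24.1, 6.67, 13.1 and 30.3 in C, 0.614, 0, 0.945, 5.61 and 7.73 in M and 0, 0.395, 0.285, 0.727 and 1.84 in AA. Fdxr was not called in AA vs. M at -0.87 (SE 0.55, adjusted p = 0.296), and had -2.30 (adjusted p = 0.0117) with M mice 4 and 5 alone. In AA vs. C the change was -3.30 (SE 0.41, adjusted p = 0.000302) for Fdxr and 0.41 (SE 0.17, adjusted p = 0.0873) for Fdx1. Por, the reductase of the microsomal enzymes, was at 5.56, 17.2, 5.43, 10.3 and 10.7 in C, 3.90, 1.71, 3.09, 6.78 and 3.06 in M and 5.53, 7.36, 8.30, 2.96 and 7.58 in AA and was called in no comparison.

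Of 4 epoxide hydrolases, which break down the products of the epoxygenases, Ephx2 was called lower in M vs. C at -2.25 (SE 0.40, adjusted p = 0.0227), and -1.80 (adjusted p = 0.166) with M mice 4 and 5 alone. Ephx2 and Ephx1 were called lower in AA vs. C at -1.78 (SE 0.34, adjusted p = 0.00249) and -1.42 (SE 0.35, adjusted p = 0.00930). Of 16 tested receptor and transcription factor genes, 0 were called in M vs. C, with 1 higher and 4 lower at an unadjusted p under 0.05 in limma and 3 called lower by limma voom. Hnf4a, the factor whose element was searched for in the promoters, was at 9.18, 31, 8.51, 24.6 and 25.0 FPKM in C, 3.80, 0.912, 1.05, 9.37 and 7.60 in M and 11.9, 11.7, 18.5, 12.2 and 18.8 in AA. All AA mice were above all M mice, with 1.79 (SE 0.47, adjusted p = 0.0195) in AA vs. M and 0.69 (adjusted p = 0.205) with M mice 4 and 5 alone. Nr1h4, the bile acid receptor, was at 6.48, 59.3, 9.39, 26.7 and 38.3 in C, 4.42, 0, 1.41, 7.73 and 5.48 in M and 2.87, 2.07, 2.31, 3.25 and 2.16 in AA, with -2.65 (SE 0.49, adjusted p = 0.00231) in AA vs. C, where the oxysterol receptors Nr1h2 and Nr1h3 were called lower as well, at -1.66 (SE 0.32, adjusted p = 0.00269) and -1.02 (SE 0.31, adjusted p = 0.0224).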

How the data were processed

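Kidney RNA of 15 mice was sequenced as poly-A paired-end libraries. The authors trimmed reads with fastp, aligned them to mm10 with HISAT2 2.0.5, counted fragments per gene with featureCounts 1.5.0-p3 and deposited FPKM, the only unit used here. Their annotation version and the library size in the FPKM denominator are not given in the sources used here. The authors tested counts with DESeq2, and those counts were not analysed here.

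Ensembl identifiers were matched to GENCODE M21. Of the table's genes, 37 had no match. For each pair of groups, log2(FPKM + 1) was fitted with limma 3.58.1 (intensity trend, R 4.3.3) over all genes above 0 in at least 5 of the 10 libraries, with Benjamini-Hochberg adjustment over all of them, and fold changes are on that scale, which understates changes of low genes. Calls needed an adjusted p no larger than 0.05 and a log2 fold change of 1 or more in either direction. Tables and plots were made with Python 3.11.15, pandas 2.3.3, numpy 2.4.6 and matplotlib 3.10.9, and the fit was checked on simulated data.

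From gene length and the steps between low values, 97.8% to 99.0% of values under 20 fragments came out whole within 0.05 fragments, which gave 13647020 to 28884427 fragments per library. These fragments served limma voom as an alternative. The same steps gave the FPKM denominator of each library. All fragments came to 0.435 to 0.708 of it in C, 0.636 to 1.54 in M and 0.674 to 1.93 in AA. Fragments outside mitochondrial genes came to 0.204 to 0.314 of it in C, 0.199 to 0.229 in M and 0.208 to 0.247 in AA. Counting error is the only error such depth describes, and 1 kidney was sequenced per mouse. Shared 31-base words between transcripts were counted to mark genes whose reads may be split. The share was over 10% in 54 of the 98 members and over 50% in 13. It was 34.8% for Cyp2d9, 44.9% for Cyp4a10 and 32.0% for Cyp4a31.

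Members named with values were those called in any comparison, the most abundant tested member of each subfamily and a list by known role. The members, this list, the partner genes and the cell markers were chosen with earlier results of these data known, so no p is given over any list. The fits with M mice 1, 4 and 5 were added after the data were examined.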

Additional observations from a re-analysis of the deposited data

Results flagged for a closer look

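In 72 groups of 5 mice, covering the members called in any comparison, 7 held a mouse set apart from the other 4 by Dixon's criterion (critical value 0.71). For normally distributed values chance alone gives about 1 in 20. FPKM values with listed zeros need not follow that rate, so the 7 are flags and not a test. Cyp2a5 was at 1.75 FPKM in M mouse 1, against 0.0822 or less in the other M mice, and Cyp4a12a was at 5.94 in C mouse 2. Cyp7b1 was at 1.53 in AA mouse 4, below the rest of its group. The other 4 were single high AA mice, namely Cyp2d12 at 0.224 in mouse 5, Cyp2j7 at 1.10 in mouse 3, Cyp4a12a at 1.28 in mouse 2 and Cyp4f13 at 1.28 in mouse 1. For Cyp2d12 and Cyp2j7 the other 4 AA mice were listed at 0, which sets Dixon's ratio at 1 whatever the remaining value.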

How the results depend on the processing

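In M vs. C, 9 members were called, against 1 with genes above 0 in any library, 14 with a mean of at least 1 FPKM, 21 with libraries scaled to the same total, 15 with all 15 libraries in 1 fit, 22 by voom on recovered fragments, 0 with M mice 4 and 5, 18 with M mice 1 to 3 and 0 with M mice 1, 4 and 5; leaving out 1 library gave 1 to 13. Of all genes, 291 were called in the main fit. In the other fits, in the same order, 33, 448, 1609, 786, 1818, 0, 3192 and 0 of all genes were called, and 4 to 954 without 1 library. With equal totals without mitochondrial genes 8 members were called, all lower, beside 179 of all 21137 genes called lower and 61 higher. The members' median of -0.50 became -1.36 with a pseudocount of 0.1, -0.10 with genes above 0 in any library, -1.50 with a mean of at least 1 FPKM, -1.19 with equal totals, -1.31 with equal totals without mitochondrial genes, -0.14 after centring and -3.02 by voom. The 1 partner gene called became 0, 2, 10, 2, 5, 8, 0, 9 and 0 under any library, mean of at least 1 FPKM, equal totals, centring, all 15 libraries, voom, M mice 4 and 5, M mice 1 to 3 and M mice 1, 4 and 5, and 0 to 4 without 1 library.

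In AA vs. M, the 7 called members became 11 with a pseudocount of 0.1, 0 with equal totals, 4 after centring, 3 by voom, 4 with M mice 4 and 5 and 0 with M mice 1, 4 and 5, and 5 to 8 without 1 library. With equal totals 11 members had an unadjusted p under 0.05 in limma, all higher, beside 4322 of all 19798 genes in either direction. Of all genes, 2533 were called in the main fit. The fits from pseudocount 0.1 to M mice 1, 4 and 5 called 3591, 422, 2813, 1679, 1581 and 432, and those without 1 library 1805 to 2897. With equal totals without mitochondrial genes 8 members were called, all higher, beside 2598 of all 19782 genes called higher and 271 lower. The members' median of 0.39 became 0.93, 0.11, 0.74, 0.81, 0.11, -0.12 and 1.55 with a pseudocount of 0.1, any library, mean of at least 1 FPKM, totals without mitochondrial genes, quantile normalization, centring and voom. The 2 partner genes called became 0 with equal totals, 1 without mitochondrial genes, 0 by voom, 5 with M mice 4 and 5 and 0 with M mice 1, 4 and 5, and 1 without M mouse 3.

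In AA vs. C, the median of -0.13 became -0.48, -0.94, -0.63, -0.50 and -1.80 with a pseudocount of 0.1, mean of at least 1 FPKM, equal totals, totals without mitochondrial genes and voom, and the 6 partner genes called became 15 with equal totals and 15 by voom. Cyp1b1 in AA vs. C, 1.00 as deposited, reversed to -0.032 with equal totals, which include the mitochondrial genes. The cause of these shifts was not tested. With the replicate number as a block, 6, 6 and 20 members were called in the 3 comparisons, beside 152, 2217 and 4345 of all genes. The partner gene of M vs. C was lost (0 called), but same-numbered mice had correlations of -0.23 to 0.17 and shared only a number.

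Of the members, 14 were listed at 0 in every library and 67 in all of M mice 1 to 3. AA mouse 2 had 46 members above 0 with 2225764 fragments outside mitochondrial genes, and M mouse 3 had 23 with 2770068. Over all genes these 2 libraries had 18972 and 12222 above 0. They belong to different groups, and the cause of the zeros was not tested.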

Other observations

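Relatives of the family under other symbols gave no call. Ptgis, the prostacyclin synthase, was at 4.90, 2.84, 0.821, 1.77 and 3.42 FPKM in C, 5.10, 3.13, 3.50, 4.20 and 1.07 in M and 2.69, 5.10, 7.40, 2.69 and 4.84 in AA, and all groups overlapped. Tbxas1, the thromboxane synthase of macrophages and platelets, was at 0.407, 0.555, 0.200, 0.221 and 0.378 in C, 0, 0, 0.275, 0.251 and 0.521 in M and 0.557, 0.512, 0.535, 0.502 and 0.519 in AA, at 0.35 (SE 0.16, adjusted p = 0.145) by limma in AA vs. M. Its AA values lay between 0.502 and 0.557, a narrower range than in either other group.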
